A study of Mus musculus with 30 samples.

Results

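Ethoxysanguinarine and baicalin were compared in the abdominal aorta of mice infused with angiotensin II. The comparison was between 5 libraries with the group label AngII+ETH and 5 with the label AngII+BAI, which are 10 of the 30 total RNA libraries of the series. Annotated transcripts listed for both groups were summed to 14529 of the 15541 genes of the series. Mice of both groups were wild-type C57BL/6 and received angiotensin II at 500 ng/kg/min for 28 days. AngII+ETH mice also received ethoxysanguinarine, and AngII+BAI mice baicalin, each at 5 mg/kg/day, so dose and time were matched. For context, values are also given for mice that received saline (Control) or angiotensin II alone (AngII), with 5 libraries each. The remaining groups received angiotensin II with gastrodin (AngII+GAS) or valsartan (AngII+VAL). The labels name no age, and do not say whether the libraries of a group came from separate animals, so p-values measure only the spread between these samples. The series title describes compounds that act on the hypertension caused by angiotensin II, and the question here was whether aortas given 1 compound differed in RNA levels from those given the other.

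Angiotensin II constricts arteries through its type 1 receptor on smooth muscle, raises blood pressure, and over weeks is known to promote growth of the vessel wall, matrix deposition and inflammation. Ethoxysanguinarine is an alkaloid of the benzophenanthridine class, related to sanguinarine. Baicalin is a flavonoid, the glucuronide of baicalein from Scutellaria. An abdominal aorta taken whole holds smooth muscle, endothelium and adventitial fibroblasts, and can carry perivascular fat, nerve, ganglion, lymph node and skeletal muscle from its surroundings. In such bulk samples, more cells of a type and more RNA per cell cannot be told apart.

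Levels are in FPKM, fragments per kilobase of transcript relative to library depth, and the libraries rested on 69.8 to 80.8 M reads. For a 2 kb transcript the limit set by 3 reads was 0.0186 to 0.0215 FPKM, for counting error only. AngII+BAI 1 was the shallowest library and listed 4131 of the shared annotated transcripts at 0, against 1116 to 1909 in the other 9. AngII+BAI 1, 3 and 5 stood apart from the rest: their median Spearman correlation with the other libraries, across genes, was 0.814 to 0.827, against 0.876 to 0.894. The median SD of a gene within a group was 0.49 (log2) in AngII+BAI, 0.29 in AngII+ETH and 0.24 to 0.34 in the other 4 groups. Smooth muscle markers were high in all 10 libraries, with Acta2 at 869 FPKM or more, which matches the labelled tissue. Of the FPKM of the shared annotated transcripts, mitochondrially encoded genes took 21.5%, 23.8%, 23.5%, 12.2% and 21.9% in AngII+ETH and 12.5%, 22.5%, 13.8%, 21.4% and 13.4% in AngII+BAI. The groups overlapped, and the difference in means of 3.87 percentage points did not pass an exact two-sided permutation test (p = 0.27, smallest possible p = 0.0079).

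Of 11972 genes tested with limma, 2 were higher with ethoxysanguinarine at a Benjamini-Hochberg adjusted p under 0.05, Ankrd46 and Ino80, and 0 were lower. That is 0.0167% of the genes tested in the higher direction and 0% in the lower. Before adjustment 738 genes (6.16%) had a p under 0.05, 286 of them higher (2.39%) and 452 lower (3.78%). The 5 AngII+ETH libraries lay wholly above the 5 AngII+BAI libraries for 69 genes (0.576%) and wholly below for 59 (0.493%). The median log2 fold change of all tested genes was −0.07, with 41.3% of genes above 0. Scaling to the sum of nuclear genes moved that median to 0.04 and quantile normalization to −0.01, and fold changes are to be read relative to that shift. Fold changes are on the log2(FPKM + 1) scale, AngII+ETH minus AngII+BAI, and understate the change of low genes. Low counts of calls do not show that the compounds acted alike: the 95% confidence interval lay within 1 log2 unit of 0 for 7471 genes (62.4%) and reached beyond it for the others. In data simulated for this comparison, limma called 28% of the genes changed by 1 log2 unit and 76% of those changed by 2. The simulation drew genes independently and gave both groups the same spread, unlike these libraries, so the shares are only a guide.

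Ankrd46 (ENSMUSG00000048307, GRCm38 chromosome 15, 36477668 to 36496820, minus strand) encodes a small membrane protein with ankyrin repeats. It was at 20.5, 14.8, 13.4, 25.4 and 18.8 FPKM with ethoxysanguinarine and at 3.78, 4.86, 3.26, 2.19 and 3.75 FPKM with baicalin. Every AngII+ETH library was above every AngII+BAI library, and the log2 fold change was 2.09 (SE 0.22, adjusted p = 0.016). The gene sum rests on 2 transcripts. ENSMUST00000057486 held 92.2% of the gene's FPKM with ethoxysanguinarine and was at 12.2 to 23.8 FPKM, against 1.04 to 2.49 with baicalin. ENSMUST00000228630 showed no such gap, at 1.14 to 1.87 against 0.771 to 3.43 FPKM. The difference lay in 1 of the 2 transcript models, which was high or low by library elsewhere too. Of the AngII libraries, 2 of 5 were under 3 FPKM for it and the highest was at 32.3 FPKM, while 1 of 5 AngII+GAS libraries was under 3 FPKM and Control and AngII+VAL had 0 such libraries. How reads were divided between transcripts was not tested.

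Ino80 (ENSMUSG00000034154, chromosome 2, 119373042 to 119477687, minus strand) encodes the ATPase of the INO80 chromatin-remodelling complex, which moves nucleosomes. Its mean was under the level set for named genes, and it is given because it is 1 of only 2 genes that passed. It was at 2.53, 4.72, 3.41, 4.24 and 3.59 FPKM with ethoxysanguinarine. With baicalin it was at 0.923 FPKM in AngII+BAI 2 and at 0 in the other 4 libraries, and the groups did not overlap (log2 fold change 2.02, SE 0.23, adjusted p = 0.02). A single transcript of the gene, ENSMUST00000049920, was listed in both groups. It too was present or absent by library across the series: 4 of 5 Control libraries, 1 of 5 AngII, 1 of 5 AngII+GAS and 2 of 5 AngII+VAL libraries were at 0. The values are thus those of 1 transcript model and may not stand for the whole gene. How reads were divided between transcripts was not tested for Ino80 either.

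**Figure D1:**
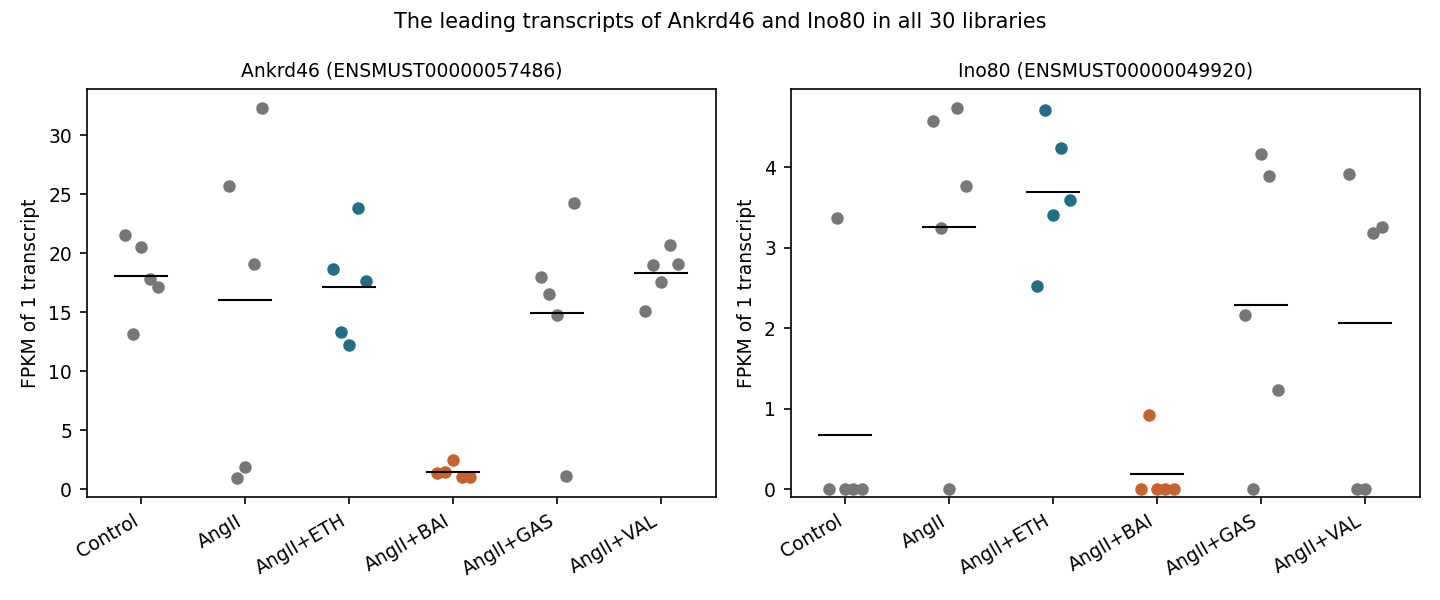
FPKM of the transcript that leads Ankrd46 (left) and of the only Ino80 transcript listed in both groups (right), in each of the 30 libraries (points) with group means (lines). All 5 AngII+BAI libraries are low for both, at no more than 2.49 and 0.923 FPKM, and some libraries of other groups are as low.

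Whether the genes passed the threshold depended on single libraries, while their fold changes moved little. With 1 library left out the log2 fold change ran from 1.97 to 2.20 for Ankrd46 and from 1.95 to 2.21 for Ino80. Neither passed without AngII+ETH 4, AngII+ETH 5, AngII+BAI 1, AngII+BAI 3 or AngII+BAI 5, where 0 genes passed in each case, nor when all 30 libraries shared 1 estimate of the spread (0 genes). Without AngII+BAI 3 and 5 together 2 genes passed, and neither was Ankrd46 or Ino80. The direction of both stayed the same in every setting run. Because their ranges did not overlap, leaving out libraries could not have turned it.

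The 11 other genes of the higher direction that the naming rule picked had ranges that did not overlap but did not pass (adjusted p = 0.74 for each). Smoc2, a calcium-binding matricellular protein made by fibroblasts, was at 56.4, 60.2, 61.2, 104 and 75.2 FPKM with ethoxysanguinarine and at 19.9, 42.9, 37.5, 28.9 and 38.1 FPKM with baicalin (log2 fold change 1.08, SE 0.24). The lowest AngII+ETH value was thus above the highest AngII+BAI value. Its mean was 67.4 FPKM in AngII and 39.2 in Control. Adamtsl2, a secreted protein that binds fibrillin microfibrils, was at 6.2, 8.03, 5.42, 6.06 and 7.31 FPKM against 1.4, 3.97, 0.3, 2.51 and 2 FPKM (1.45, SE 0.32). The AngII mean of 6.87 FPKM lay near the former group and the Control mean of 2.21 FPKM near the latter. Col4a4, a basement membrane collagen chain, was at 4.34, 3.72, 3.77, 8.1 and 6 FPKM against 3.02, 1.7, 0.243, 0.44 and 1.56 FPKM (1.45, SE 0.34).

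Enzymes and signalling genes made up most of the remainder. Pcx, pyruvate carboxylase, which feeds oxaloacetate to fat and glucose synthesis, was at 164 to 211 FPKM with ethoxysanguinarine and at 79.5 to 142 FPKM with baicalin (0.84, SE 0.20). The share of its leading transcript was 94.5% in AngII+ETH and 57.4% in AngII+BAI. Gsta3, a glutathione S-transferase that conjugates electrophiles, was at 16, 13.8, 12.3, 29.1 and 19.3 FPKM against 10.4, 4.91, 3.32, 11 and 6.66 FPKM (1.25, SE 0.32), with means of 34.6 in AngII and 22.9 in Control. Both compound groups were therefore below the AngII mean for this gene. Pde4b, a phosphodiesterase that breaks down cyclic AMP, was at 4.7 to 8.07 FPKM against 1.53 to 3.63 (0.84, SE 0.21). Sumf2, a paralog of the enzyme that activates sulfatases, was at 4.83 to 6.38 FPKM against 2 to 3.8 (0.85, SE 0.18). Flt3l, the ligand of the Flt3 cytokine receptor, had 0.75 (SE 0.20), Hoxa9, a homeobox gene of positional identity, 1.07 (SE 0.29), and AA914427, a predicted gene, 1.08 (SE 0.26). Sc5d is described with its pathway below. Overlapping genes and close paralogs, among them glutathione S-transferases, are uncertain because the library kit does not mark strand and no source used here gives how shared reads were counted.

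The 12 genes of the lower direction likewise had ranges that did not overlap and did not pass (adjusted p = 0.74 for each). Wee1, the kinase that holds cells before mitosis, was at 2.96, 4.28, 3.68, 3.7 and 4.57 FPKM with ethoxysanguinarine and at 7.53, 10.9, 5.14, 6.79 and 7.24 FPKM with baicalin (log2 fold change −0.79, SE 0.20). The AngII and Control means, 3.19 and 2.79 FPKM, lay near the ethoxysanguinarine values. Ugdh, which makes the UDP-glucuronic acid used for glycosaminoglycans and for glucuronide conjugation, was at 9.66, 14, 17.9, 11.1 and 8.66 FPKM against 25.1, 21.5, 36.5, 21.2 and 21.8 FPKM (−1.0, SE 0.22). Its AngII mean was 16.3 FPKM and its Control mean 13.1 FPKM, also below all 5 baicalin libraries. Pex16, a peroxisome assembly factor, was at 2.03 to 5.49 FPKM against 6.87 to 14.8 (−1.36, SE 0.27). Its leading transcript held only 39.4% and 49.2% of the gene's FPKM in AngII+ETH and AngII+BAI. Crlf3, a cytokine receptor-like factor, was at 0.38 to 3.18 FPKM against 4.5 to 12.5 (−1.62, SE 0.35). Cyb561, a transmembrane electron carrier of secretory vesicles, was at 3.06, 10.3, 4.32, 2.45 and 2.33 FPKM against 24.8, 17.4, 10.6, 11.1 and 10.4 FPKM (−1.62, SE 0.37). AngII+ETH 2 and AngII+BAI 5 nearly met for this gene. Ppa1, the cytosolic inorganic pyrophosphatase, had −0.73 (SE 0.19), Cpne1, a calcium-dependent membrane-binding protein, −1.14 (SE 0.29), and Lsm7, of the spliceosomal and decay Lsm rings, −0.76 (SE 0.20). Tmed1, a cargo receptor of the early secretory pathway, had −0.77 (SE 0.21), and Dusp16, a phosphatase of stress-activated kinases, −0.65 (SE 0.18). March3, a ubiquitin ligase of endosomes, had −0.58 (SE 0.16). Gm10076, a predicted gene whose reads may be shared with close copies, had −1.42 (SE 0.28) and is uncertain.

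**Figure D2:**
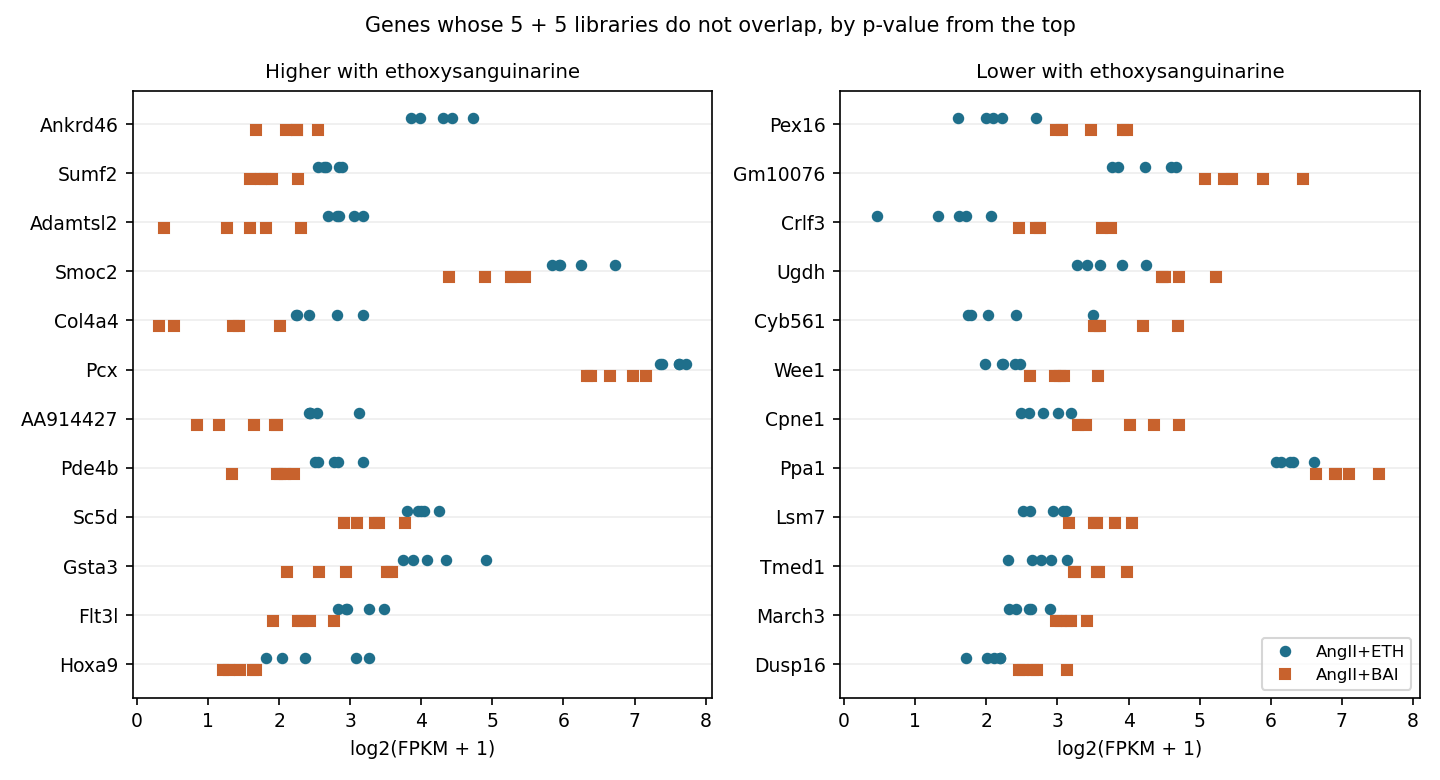
Log2(FPKM + 1) in the 5 AngII+ETH libraries (circles) and the 5 AngII+BAI libraries (squares) for the 24 genes picked by the naming rule. The gap is widest for Ankrd46, and the nearest libraries almost touch in several genes, Cyb561, Sc5d, Lsm7 and Ppa1 first among them.

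Genes were also read as 39 lists of pathways and cell types with 787 distinct genes, of which 662 were tested. No list member passed the threshold (0 higher, 0 lower, limma), and 60 of the 662 (9.06%) had an unadjusted p under 0.05, against 6.16% of all tested genes. A list score is the mean log2(FPKM + 1) of its tested members in a library. Scores of 1 of the 39 lists did not overlap between the groups. Lists were chosen with earlier results of these data known, and their counts and medians are descriptions.

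Cholesterol and fatty acid synthesis genes were the list with the most members of non-overlapping range in the higher direction. Cells make both lipids from cytosolic acetyl-CoA, under transcription factors of the SREBP family. Of 23 tested members, 18 were higher with ethoxysanguinarine, with a median log2 fold change of 0.33 against −0.07 over all genes, 6 were higher at an unadjusted p under 0.05 (2.39% of all genes were), and 3 lay wholly above (0.576% of all genes did). None passed (0 of 23). Acly, ATP-citrate lyase, which makes that acetyl-CoA, was at 601, 558, 850, 458 and 457 FPKM with ethoxysanguinarine and at 373, 275, 180, 357 and 115 FPKM with baicalin. The groups did not overlap, and the log2 fold change was 1.26 (SE 0.34, adjusted p = 0.74). Fasn, fatty acid synthase, was at 804, 1053, 1390, 698 and 833 FPKM against 617, 663, 375, 770 and 234 FPKM (0.92, SE 0.35, adjusted p = 0.74). AngII+ETH 4 lay below AngII+BAI 4 for Fasn, so those ranges overlapped. Srebf1, which encodes SREBP-1, was at 47.9, 41.7, 46.4, 34.8 and 34.6 FPKM against 24.1, 22, 35.5, 31.5 and 27.4 FPKM (0.54, SE 0.17, adjusted p = 0.74).

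On the sterol side, Hmgcs1, which makes the HMG-CoA that enters the mevalonate pathway, was at 53.6, 47.3, 52.1, 47 and 49.8 FPKM with ethoxysanguinarine and at 33.5, 33.3, 43.4, 43.4 and 38.8 FPKM with baicalin (0.38, SE 0.14, adjusted p = 0.74). Sc5d, a desaturase late in cholesterol synthesis, was at 18, 15.5, 15, 12.9 and 14.5 FPKM against 12.6, 9.63, 7.55, 9.15 and 6.57 FPKM (0.70, SE 0.18, adjusted p = 0.74). For both genes every ethoxysanguinarine library was above every baicalin library, though Sc5d by a narrow margin. In the AngII libraries Hmgcs1 ran from 26.7 to 69.5 FPKM, Sc5d from 11.8 to 25.4 FPKM and Acly from 183 to 1104 FPKM, and thus wider than in either compound group. With 1 library left out the list median ran from 0.12 (without AngII+BAI 5) to 0.39 (without AngII+ETH 5). It was 0.39 without AngII+BAI 3 and 5, 0.37 without AngII+BAI 1, 3 and 5, and 0.44 and 0.45 under quantile and nuclear sum scaling. White adipocyte genes, which mark the fat that makes these enzymes in quantity, had 17 of 19 members higher and a median of 0.18, against 7 of 19 and −0.10 without AngII+BAI 1, 3 and 5. Their score ran from 6.86 to 7.33 in AngII+ETH and from 6.48 to 7.32 in AngII+BAI, and its part in the result was not tested. Dgat2, which completes triglyceride synthesis, had 0.71 (SE 0.33) and the adipocyte hormone gene Retn 0.63 (SE 0.31), both with an adjusted p of 0.74.

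**Figure D3:**
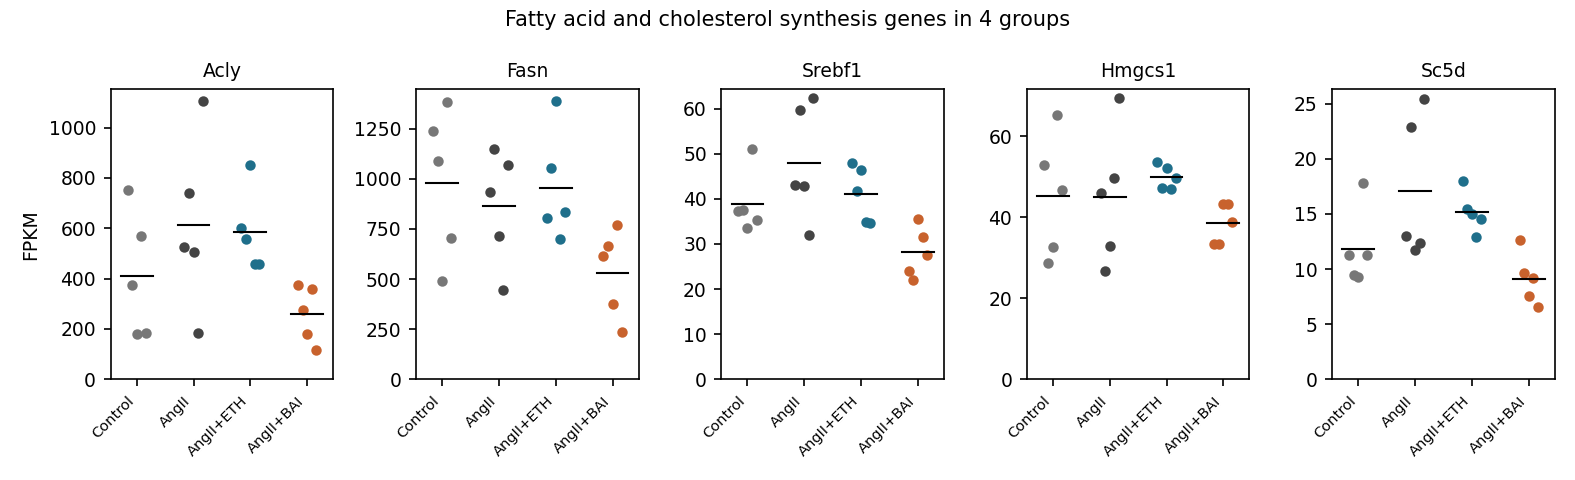
FPKM of Acly, Fasn, Srebf1, Hmgcs1 and Sc5d in each library of Control, AngII, AngII+ETH and AngII+BAI (points) with group means (lines). AngII+ETH lies above AngII+BAI without overlap for Acly, Hmgcs1 and Sc5d. The AngII libraries spread across both for Acly and Hmgcs1. For Sc5d they lie above all AngII+BAI libraries but AngII+BAI 1.

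The promoters of the 3 lipid genes with non-overlapping ranges are shown because these were the list's only members whose ranges did not overlap between the groups. Each is a RefSeq window of GRCm38.p6, 250 bases before to 50 after the start of the gene, on the gene's strand and 5′ to 3′. Capitals mark matches, on either strand, to the E-box CACGTG, the sterol regulatory element TCACNCCAC and the CCAAT box CCAAT, which do not overlap each other here.
Acly, chr11:100527951-100528250, minus strand: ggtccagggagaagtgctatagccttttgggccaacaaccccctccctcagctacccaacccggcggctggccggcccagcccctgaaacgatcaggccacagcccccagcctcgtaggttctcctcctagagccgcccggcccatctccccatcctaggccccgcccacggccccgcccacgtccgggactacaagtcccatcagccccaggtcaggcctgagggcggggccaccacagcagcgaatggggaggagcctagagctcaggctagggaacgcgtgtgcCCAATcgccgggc
Hmgcs1, chr13:119690101-119690400, plus strand: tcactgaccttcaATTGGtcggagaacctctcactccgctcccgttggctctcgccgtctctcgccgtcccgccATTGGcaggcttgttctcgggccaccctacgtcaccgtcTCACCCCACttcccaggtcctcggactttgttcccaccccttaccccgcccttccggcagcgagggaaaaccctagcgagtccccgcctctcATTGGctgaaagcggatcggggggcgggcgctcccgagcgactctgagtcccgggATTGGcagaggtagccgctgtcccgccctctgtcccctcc
Sc5d, chr9:42264251-42264550, minus strand: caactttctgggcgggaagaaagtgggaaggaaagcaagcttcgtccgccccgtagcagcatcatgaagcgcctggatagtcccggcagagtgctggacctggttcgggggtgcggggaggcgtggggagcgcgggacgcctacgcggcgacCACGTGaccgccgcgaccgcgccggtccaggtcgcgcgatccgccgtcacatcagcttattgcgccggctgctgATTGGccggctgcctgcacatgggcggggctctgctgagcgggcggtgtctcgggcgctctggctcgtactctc
Hmgcs1 held 1 sterol regulatory element and 4 CCAAT boxes, Sc5d 1 E-box and 1 CCAAT box, and Acly 1 CCAAT box. RefSeq windows were matched for 15 of the 23 tested members, with 19 windows among them. The sterol regulatory element was in 1 of these 19 windows (5.26%) and in 1.24% of all 32851 windows of the table. The E-box was in 3 (15.8%), against 7.15%, and the CCAAT box in 14 (73.7%), against 37.4%. A match is a run of letters and not a measured binding site.

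Receptors and regulators of endothelin and adrenergic signalling were the list whose scores did not overlap. These pathways, with angiotensin II, set smooth muscle tone, and RGS proteins shut off the G proteins that their receptors activate. The score was 3.27, 3.41, 3.34, 3.39 and 3.35 in AngII+ETH and 2.90, 3.01, 3.24, 3.21 and 3.10 in AngII+BAI. Of 16 tested members, 10 were higher with ethoxysanguinarine (median 0.20), 4 of them at an unadjusted p under 0.05 (2.39% of all genes were), and 0 passed. No single member had ranges that did not overlap (0 of 16). The median ran from 0.10 (without AngII+BAI 3) to 0.32 (without AngII+BAI 4) with 1 library left out. It was 0.077 without AngII+BAI 3 and 5 and 0.21 without AngII+BAI 1, 3 and 5. Rgs7bp, a membrane anchor of RGS proteins, was at 4.95, 7.16, 3.82, 10.9 and 8.02 FPKM against 4.83, 1.7, 2.45, 3.17 and 2.56 FPKM (0.99, SE 0.28). AngII+BAI 1 lay among the ethoxysanguinarine libraries. Rgs5, a pericyte and smooth muscle regulator, was at 299, 445, 321, 1088 and 1114 FPKM against 226, 384, 150, 255 and 205 FPKM (1.25, SE 0.43). AngII+ETH 4 and 5 were the high libraries, and the others overlapped with AngII+BAI 2. Adra1d, an alpha-1 adrenoceptor, had 0.89 (SE 0.36), Rgs4 0.53 (SE 0.22) and Rgs2, whose loss in mice raises blood pressure, −0.49 (SE 0.23). All 5 genes had an adjusted p of 0.74. They were the 5 members of smallest p, and the endothelin genes ranked lower by p (Ednrb 7, Edn1 14 and Ednra 16 of 16).

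The renin-angiotensin genes had 5 of 9 tested members higher (median 0.15), and 4 of 9 without AngII+BAI 1 (−0.034) or under quantile scaling (−0.05). Agtr1a, the type 1 receptor of angiotensin II, was at 14.2, 2.92, 3.87, 5.16 and 3.9 FPKM with ethoxysanguinarine and at 2.35, 3.05, 5.89, 2.7 and 5.97 FPKM with baicalin. The groups overlapped and only AngII+ETH 1 stood out, where neuron genes were also highest (log2 fold change 0.37, 95% confidence interval −0.46 to 1.21, adjusted p = 0.8). Ace, the enzyme that makes angiotensin II, was at 86, 72.2, 91.9, 152 and 81.9 FPKM against 52.4, 91.3, 22.7, 86.1 and 81.8 FPKM (0.63, −0.20 to 1.46, adjusted p = 0.74). Atp6ap2, the prorenin receptor, had −0.31 (−0.74 to 0.11).

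Nitric oxide, natriuretic peptide and cyclic GMP signalling relaxes smooth muscle. The list of its genes and their regulators had 8 of 15 members higher and a median of 0.28. That median was 0.14 without AngII+BAI 3, 0.16 without AngII+BAI 5, 0.18 without AngII+ETH 4 and 0.096 without AngII+BAI 3 and 5. Gucy1a1, a subunit of the nitric oxide receptor, was at 27.8, 20.7, 22.8, 42.2 and 27.3 FPKM against 21.9, 18.7, 8.5, 21.7 and 21.9 FPKM (0.61, −0.01 to 1.23). The means of both groups were below the AngII and Control means of 36.8 and 34.7 FPKM, though AngII+ETH 4 was above them. Its partner Gucy1b1 had 0.43 (−0.16 to 1.01), the natriuretic peptide receptor gene Npr2 0.45 (−0.09 to 0.99) and the cyclic GMP-dependent kinase gene Prkg1 0.61 (−0.26 to 1.47). Nos3, endothelial nitric oxide synthase, was at 1.19 to 2.99 FPKM with ethoxysanguinarine. With baicalin it was at 10.1 and 8.55 FPKM in AngII+BAI 3 and 5 and at 1.51 to 2.55 FPKM in the other 3 (−0.57, −1.52 to 0.38, adjusted p = 0.75). Without those 2 libraries the sign turned, to 0.14.

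All 19 tested contractile genes were higher with ethoxysanguinarine, with a median of 0.56, and none reached an unadjusted p under 0.05 (0 of 19) or passed. The difference lay in 2 libraries. The score was 6.95, 6.98, 6.66, 7.53 and 6.92 in AngII+ETH and 7.21, 7.03, 5.43, 6.87 and 5.85 in AngII+BAI, lowest in AngII+BAI 3 and 5. Without these 2, 6 of 19 members were higher and the median was −0.09. Acta2, smooth muscle actin, was at 3676, 4044, 3401, 5705 and 3187 FPKM against 6933, 4545, 869, 4308 and 1603 FPKM (0.46, −0.72 to 1.63, adjusted p = 0.82), and at −0.39 without AngII+BAI 3 and 5. Myh11, smooth muscle myosin, was at 396, 528, 383, 775 and 526 FPKM against 435, 571, 69, 437 and 155 FPKM (0.96, −0.24 to 2.15). The actin-filament gene Lmod1 had 0.83 (−0.27 to 1.94), the myosin light chain kinase gene Mylk 0.62 (−0.28 to 1.52) and Pln, the inhibitor of the calcium pump SERCA, 0.56 (−0.09 to 1.21). Among channels and pumps, with 10 of 12 members higher and a median of 0.32 (0.15 without AngII+BAI 3 and 5, and 0.027 without AngII+BAI 1, 3 and 5), the calcium pump gene Atp2b4 had 0.71 (SE 0.37) and the calcium release channel gene Ryr2 0.63 (SE 0.32).

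**Figure D4:**
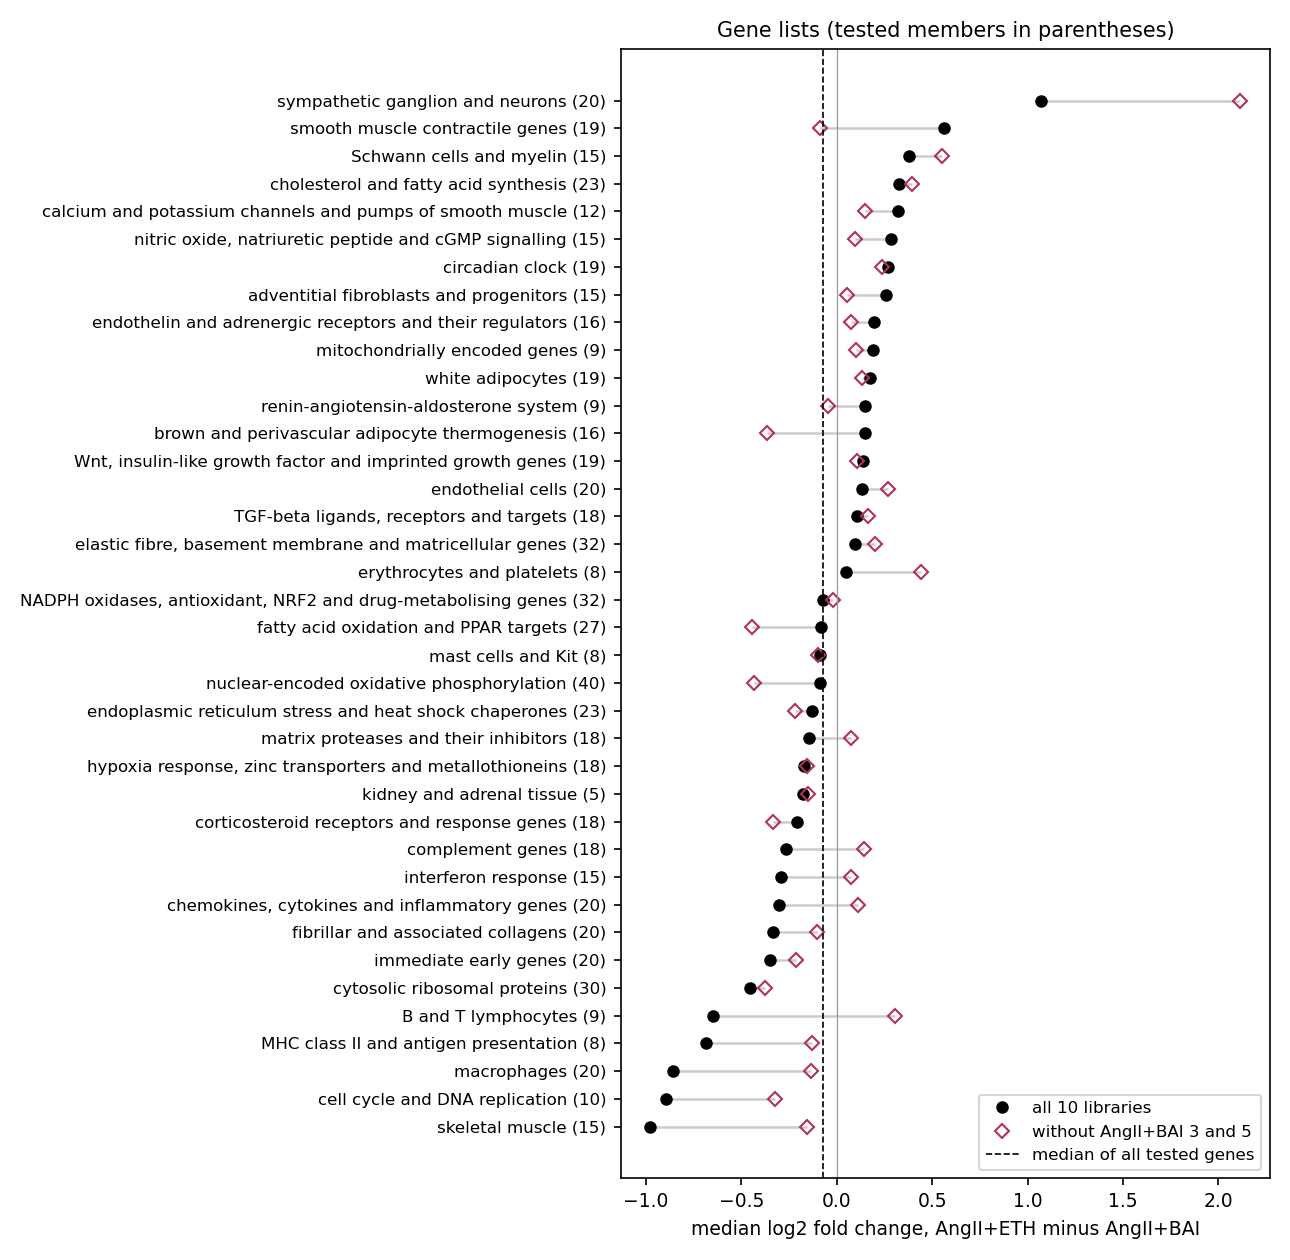
Median log2 fold change, AngII+ETH minus AngII+BAI, of the gene lists with at least 5 tested members, over all 10 libraries (filled circles) and without AngII+BAI 3 and 5 (open diamonds); the dashed line is the median of all tested genes. The medians of contractile, macrophage, cell cycle and skeletal muscle genes move towards the line without the 2 libraries, and those of lipid synthesis and neuron genes do not.

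Macrophage genes were lower with ethoxysanguinarine, and the same 2 baicalin libraries held the high values. Of 20 macrophage genes, 1 was higher and 19 lower (median −0.86), and the score was 3.56 to 4.79 in AngII+ETH against 6.60 in AngII+BAI 3, 5.84 in AngII+BAI 5 and 4.19 to 4.68 in the other 3. The summed level of these 20 genes was 424 to 1130 FPKM in AngII+ETH and 736 to 4416 FPKM in AngII+BAI, and none was at 0 in any library (0 of 20). Lyz2, lysozyme of myeloid cells, was at 202, 95.7, 215, 287 and 209 FPKM against 365, 215, 1893, 204 and 1143 FPKM (−1.42, SE 0.62, adjusted p = 0.74). C1qb, of the complement component made by macrophages, had −0.97 (SE 0.44). Without AngII+BAI 3 and 5 the list median was −0.13, with 5 of 20 higher, against −0.017 over all genes in that setting. MHC class II genes had 0 of 8 members higher (median −0.69, and −0.13 without those libraries), with Cd74, the invariant chain, at −0.75 (SE 0.43) and H2-DMb1 at −0.72 (SE 0.32). Ccl2, the monocyte chemokine, was at 72.2 FPKM in AngII+BAI 3 and 9.07 in AngII+BAI 5, and at 0.216 to 3.26 FPKM in the other 8 libraries (−1.35, SE 0.95, adjusted p = 0.75). Chemokine and inflammatory genes had 2 of 20 higher (median −0.30), but 11 of 20 without AngII+BAI 3 and 5 (0.11). The interferon-induced gene Isg15 had −0.74 (SE 0.36). Its list had 4 of 15 higher (median −0.29), but 8 of 15 without those libraries (0.07). Complement genes had 7 of 18 higher (median −0.26), but 12 of 18 without AngII+BAI 3 and 5 (0.14), and C7, of the membrane attack complex, stood at 33.6, 67.8, 42.9, 145 and 124 FPKM against 9.57, 51.5, 6.77, 44.2 and 20.3 FPKM (1.77, SE 0.60, adjusted p = 0.74).

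All 10 tested cell cycle genes were lower with ethoxysanguinarine (median −0.89), 4 of them at an unadjusted p under 0.05 (3.78% of all genes were), and 0 passed. Their score was 1.58 to 2.06 in AngII+ETH and 2.83, 1.87, 3.96, 1.76 and 3.31 in AngII+BAI, so AngII+BAI 1, 3 and 5 were high and 2 and 4 were not. Ccna2, cyclin A, was at 1.64, 0.799, 2.13, 1.67 and 1.47 FPKM against 5.2, 1.39, 16.9, 1.85 and 12.5 FPKM (−1.34, SE 0.53). Rrm2, of ribonucleotide reductase, had −1.34 (SE 0.54), and Pcna, the replication clamp, −0.72 (SE 0.29). Without AngII+BAI 1, 3 and 5 the list median was −0.01. Cytosolic ribosomal proteins had 1 of 30 members higher (median −0.45), with Rps19 at −0.58 (SE 0.25), and a median of 0.01 without these 3 libraries. Ribosomal protein genes have many processed copies, and their levels are uncertain for that reason.

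Chaperones of the endoplasmic reticulum fold secreted proteins. Of the 23 genes of the stress and chaperone list, 5 were higher and 18 lower (median −0.13, and 0 under quantile and nuclear sum scaling), and 6 of the lower ones had an unadjusted p under 0.05, against 3.78% of all genes. Pdia6, a protein disulfide isomerase, was at 63.1, 59, 63.4, 70.6 and 59.1 FPKM with ethoxysanguinarine and at 125, 69.3, 172, 75.9 and 141 FPKM with baicalin (−0.80, SE 0.25). AngII+BAI 1, 3 and 5 were the high libraries, and only AngII+BAI 2 lay within the ethoxysanguinarine range. Pdia3 had −0.74 (SE 0.24), Hsp90b1 −0.67 (SE 0.23), Pdia4 −0.80 (SE 0.29) and Sdf2l1 −1.01 (SE 0.40). The collagen chaperone gene Serpinh1 was at 69.9 to 105 FPKM against 62.2 to 210 FPKM (−0.71, SE 0.32). All 6 genes had an adjusted p of 0.74.

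Among collagens, 3 of 20 members were higher and 17 lower with ethoxysanguinarine (median −0.34), and the median was −0.11 without AngII+BAI 5. Without AngII+BAI 3 and 5, 8 of 20 were higher (−0.10). Without AngII+BAI 1, 3 and 5 the direction turned, with 12 of 20 higher (0.04). Col1a1 was at 328, 311, 422, 715 and 495 FPKM with ethoxysanguinarine and at 302, 341, 403, 300 and 2976 FPKM with baicalin (log2 fold change −0.26, 95% confidence interval −1.59 to 1.07, adjusted p = 0.91). Without AngII+BAI 3 and 5 it was at 0.46. Col3a1 was at 371, 272, 518, 777 and 569 FPKM against 627, 345, 778, 424 and 3691 FPKM (−0.70, −2.01 to 0.60, adjusted p = 0.77), and at 0.06 without those libraries. AngII means were 666 and 801 FPKM and Control means 185 and 230 FPKM for Col1a1 and Col3a1. P4ha1, which hydroxylates collagen, had −0.32 (SE 0.18).

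Other matrix genes went both ways, with 19 of 32 higher (median 0.09, and −0.035 without AngII+BAI 3). Fn1, fibronectin, was at 245, 461, 434, 1085 and 458 FPKM with ethoxysanguinarine and at 135, 516, 39.8, 255 and 287 FPKM with baicalin (1.37, −0.03 to 2.77, adjusted p = 0.74). Sparc, a collagen-binding glycoprotein, was at 1425, 1152, 1543, 2109 and 1558 FPKM against 1358, 119, 866, 1349 and 340 FPKM (1.40, 0.03 to 2.77, adjusted p = 0.74). AngII+BAI 2 and 5 were the low libraries, and in AngII the gene ran from 57.4 to 1791 FPKM. Its leading transcript held 84.6% of the gene's FPKM in AngII+ETH and 55.8% in AngII+BAI. Spp1, osteopontin, made by activated macrophages and smooth muscle, was at 12, 4.98, 23.7, 49.4 and 23.2 FPKM against 60.2, 25.9, 602, 19.4 and 290 FPKM (−2.26, SE 0.95, adjusted p = 0.74). The elastic fibre gene Emilin1 had −0.61 (SE 0.23), the laminin gene Lama5 −1.58 (SE 0.62) and the basement membrane collagen gene Col18a1 1.34 (SE 0.60), with AngII+ETH 2 at 333 FPKM. Of the protease inhibitors, Timp4 was at 14.1 to 18 FPKM against 4.86 to 12.9 FPKM with no overlap (0.76, SE 0.27), and Timp1 had −1.32 (SE 0.68). Smad6, which restrains BMP signalling, had 0.68 (SE 0.25). Endothelial genes had 14 of 20 higher (median 0.13), but 9 of 20 without AngII+BAI 1 (median −0.06), with Pecam1 at −0.81 (SE 0.31), Kdr, the main VEGF receptor, at 0.57 (SE 0.29) and Emcn at 0.41 (SE 0.19).

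The list of hypoxia, zinc transporter and metallothionein genes included 2 zinc importers wholly below (0.493% of all genes were). It also included 1 hypoxia-responsive gene wholly above (0.576% of all genes were). Slc39a1, a zinc importer of the plasma membrane, was at 41.4, 40, 21.9, 35 and 36.3 FPKM with ethoxysanguinarine and at 52.5, 44.9, 58.5, 49.1 and 80.3 FPKM with baicalin (−0.69, SE 0.22, adjusted p = 0.74). The AngII and Control means, 26.4 and 27.1 FPKM, were below the means of both groups. Slc39a14, another importer, was at 4.61, 4.02, 4.5, 1.61 and 1.59 FPKM against 11.5, 5.66, 5.18, 5.31 and 9.15 FPKM (−0.99, SE 0.31). Slc39a8 had −0.67 (SE 0.29), and the zinc-binding metallothionein gene Mt2 was at 126 to 159 FPKM against 287, 277, 897, 127 and 227 FPKM (−1.08, SE 0.42). AngII+BAI 4 alone lay within the ethoxysanguinarine range for Mt2. Ndrg1, the hypoxia-responsive gene, was at 52.2 to 93.9 FPKM against 36.6 to 51.9 FPKM (0.57, SE 0.19). Each of these genes had an adjusted p of 0.74. In the list of 18, 6 were higher and 12 lower (median −0.17). Of its hypoxia genes other than Ndrg1, Vegfa had the smallest p, at rank 8.

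Redox and drug-metabolising genes had 14 of 32 members higher (median −0.07, that of all genes). Beside Gsta3, Gstm1, another glutathione transferase, was at 137, 134, 140, 213 and 137 FPKM against 140, 128, 74.3, 91.3 and 87.5 FPKM (0.56, SE 0.22). Txn1, thioredoxin, had −0.62 (SE 0.26), and Cyba, a subunit of the NADPH oxidases, −0.98 (SE 0.42), with 144, 86.2 and 75 FPKM in AngII+BAI 3, 5 and 1 and 21.7 to 47 FPKM in the other 7 libraries. Corticosteroid receptor and response genes had 6 of 18 higher (median −0.21). Among them Tsc22d3, a glucocorticoid-induced leucine zipper protein, was at 40.3, 35.5, 14, 38.2 and 15 FPKM against 103, 52.1, 43.8, 39.6 and 69.5 FPKM (−1.13, SE 0.37). Immediate early genes, which respond within minutes to stimuli and to handling, had 4 of 20 higher (median −0.35), with Nr4a3 at −1.07 (SE 0.36), Atf3 at −0.85 (SE 0.37), Ier2 at −0.48 (SE 0.21) and Jun at −0.46 (SE 0.21). Clock genes had 13 of 19 higher (median 0.27), but 9 of 19 without AngII+BAI 1, 3 and 5 (−0.07). Nfil3, an output repressor among them, stood lower, at 1.32 to 7.36 FPKM against 6.44 to 17.7 FPKM (−1.12, SE 0.37). Nr1d1 and Dbp, whose levels swing over the day, had 0.54 (SE 0.51) and 0.35 (SE 0.38). Adjusted p-values from Gstm1 to Dbp were 0.74 to 0.81, and the time of day of dissection was not given in the labels.

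Kit, the stem cell factor receptor of mast cells and progenitors, was at 4.14, 3.95, 5.09, 7.68 and 7.6 FPKM with ethoxysanguinarine and at 2.33, 3.45, 3.26, 1.39 and 3.59 FPKM with baicalin, with no overlap (0.81, SE 0.25, adjusted p = 0.74). Hdc, which makes histamine, stood the other way, also with no overlap, at 0.86 to 1.64 FPKM against 1.69 to 5.88 FPKM (−0.81, SE 0.27). In the mast cell list 3 of 8 members were higher and 5 lower (median −0.09). Of these 8, 1 lay wholly above (0.576% of all genes did) and 1 wholly below (0.493%). The mast cell protease gene Cpa3 was at 1.8 to 14.6 FPKM against 7.54 to 10.9 FPKM (−0.20, SE 0.41). Of the growth factor genes, Wnt5a had 0.64 (SE 0.21), Wnt2 −0.54 (SE 0.22) and the imprinted gene Peg3 1.52 (SE 0.60). Peg3 was at 3.18 to 6.49 FPKM with ethoxysanguinarine and at 0, 0.0194, 2.98, 0.0219 and 8.1 FPKM with baicalin. Masp1, of the lectin pathway of complement, did not reach the level for testing.

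Thermogenic and oxidative genes overlapped widely. Nuclear-encoded oxidative phosphorylation genes had 10 of 40 higher (median −0.09, and 0.10 under quantile scaling), and brown adipocyte genes 10 of 16 higher (median 0.15). Without AngII+BAI 3 and 5 these medians were −0.43 and −0.36. With 1 library left out they ran from −0.32 and −0.07 (without AngII+BAI 5) to 0.14 and 0.42 (without AngII+ETH 4), so both directions turned. Ucp1, the uncoupling protein of brown fat, was at 2372, 2052, 2584, 475 and 1841 FPKM with ethoxysanguinarine and at 2300, 2253, 812, 2194 and 627 FPKM with baicalin (0.19, −1.04 to 1.41, adjusted p = 0.94). AngII+ETH 4 and AngII+BAI 3 and 5 were low, and AngII+BAI 1, 3 and 5 with AngII+ETH 4 also had the lowest mitochondrial shares. Ucp2 had −1.40 (SE 0.53), Ppargc1a, a coactivator of mitochondrial genes, −0.89 (SE 0.45), and the mitochondrial chaperonin gene Hspd1 −0.25 (SE 0.34).

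Markers of tissues beside the aorta varied within both groups. All 20 tested neuron and sympathetic ganglion genes were higher with ethoxysanguinarine (median 1.07), with scores of 4.99, 1.79, 1.67, 3.27 and 3.10 against 0.72, 0.75, 3.30, 0.61 and 3.58. AngII+ETH 1 was the highest, and AngII+BAI 1, 2 and 4 the lowest. The median was 0.59 without AngII+ETH 1, 1.48 without AngII+BAI 5 and 2.11 without AngII+BAI 3 and 5. Th, which makes catecholamines, was at 74.9, 3.08, 2.71, 14.6 and 17.6 FPKM with ethoxysanguinarine, and with baicalin at 20.5 and 20.2 FPKM in AngII+BAI 3 and 5 and at 0 in the other 3 (1.90, SE 1.17). Npy had 2.57 (SE 1.22). The summed level of the list was 73.4 to 945 FPKM in AngII+ETH and 63.9 to 307 FPKM in AngII+BAI, and 10 of its 20 members were at 0 in at least 1 library. Schwann cell genes had 14 of 15 higher (median 0.38), with Prx, of myelin, at 0.64 (SE 0.23) and Cdh19 at 1.16 (SE 0.42). Skeletal muscle genes had 1 of 15 higher (median −0.98), with scores of 5.95, 2.47, 1.56, 2.11 and 2.90 against 3.75, 1.78, 6.35, 3.77 and 4.0 and a summed level of 58.4 to 1670 FPKM against 70.3 to 3575 FPKM. Their median was −1.95 without AngII+ETH 1 and −0.39 without AngII+BAI 3, and without AngII+BAI 1, 3 and 5 the direction turned, with 12 of 15 higher (0.24). Mylpf, a fast muscle myosin light chain, was at 128 FPKM in AngII+ETH 1, 248 in AngII+BAI 3 and 1.61 to 31.5 in the other 8. Tpm3 had −0.85 (SE 0.43). When the model also held the neuron and skeletal muscle scores, 0 genes passed. The part of these tissues in the other results was not tested.

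**Figure D5:**
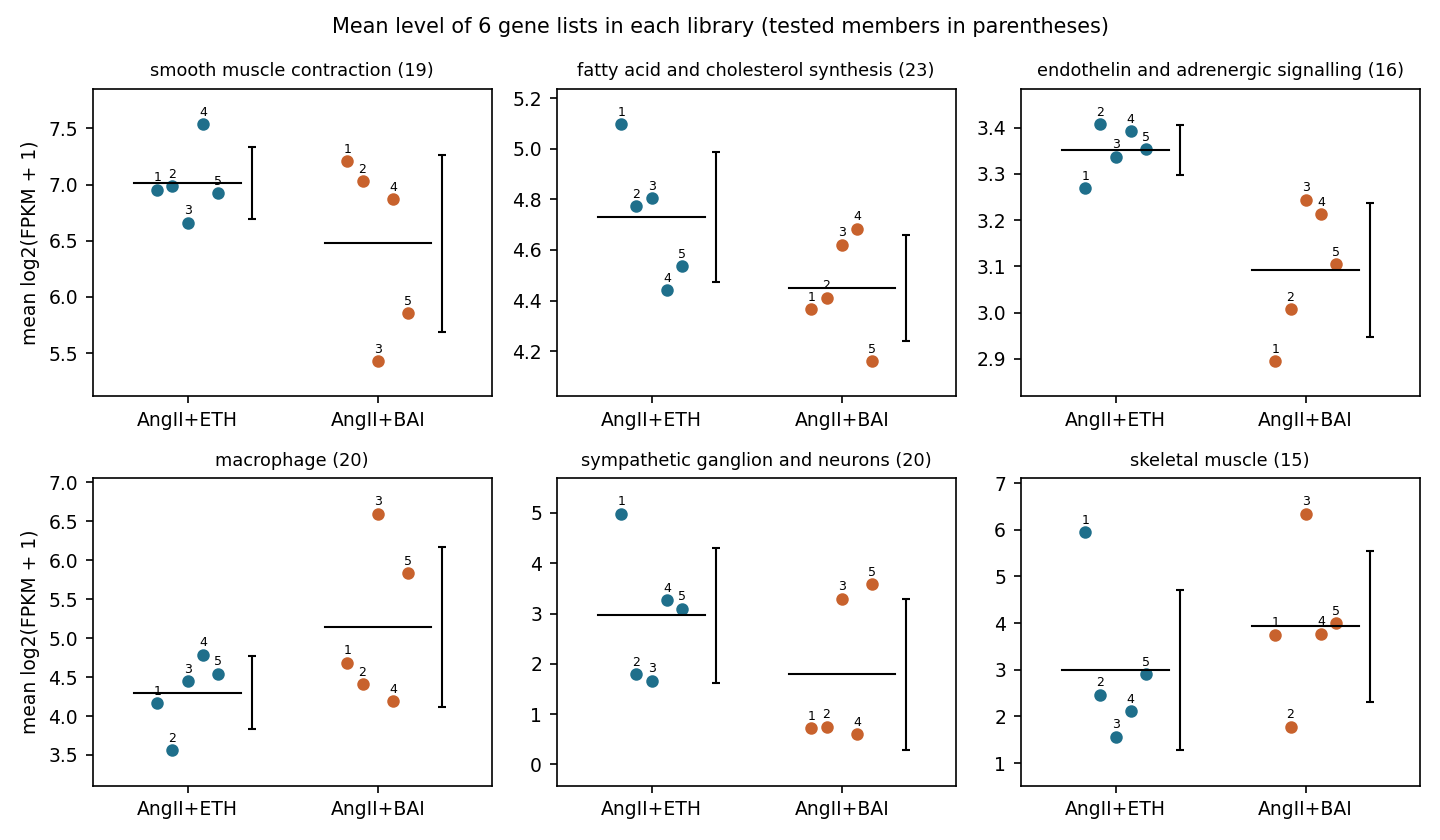
Mean log2(FPKM + 1) of 6 gene lists in each library (points, numbered by library) with group means (lines) and SD (bars beside them, n = 5). The endothelin and adrenergic scores do not overlap, contractile scores are low and macrophage scores high in AngII+BAI 3 and 5, and neuron scores are lowest in AngII+BAI 1, 2 and 4.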

How the data were processed

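Total RNA of the abdominal aorta was depleted of ribosomal RNA and made into libraries with a NEBNext kit, per the labels' protocols. The authors deposited FPKM values per transcript, a unit read from the numbers because the headers do not give it. Per the submitters' processing notes the build was mm10 and limma was used. No source used here gives the aligner, assembler or quantifier. A transcript was listed for a group where its mean there or in AngII reached 0.5 FPKM (checked on the values), so 2056 annotated transcripts listed only in AngII+BAI and 1144 listed only in AngII+ETH did not enter.

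The 28455 Ensembl transcripts listed in both groups and matched to GENCODE M21 (GRCm38) were summed to 14529 genes. Depth was read from the steps of low values, of which 98.8% to 99.4% came within 0.1 read of a whole number in a library. A gene was tested where 5 or more of the 10 libraries reached 1 FPKM, which 11972 genes did. The test was that of limma 3.58.1 on log2(FPKM + 1) (lmFit, contrasts.fit, eBayes with trend and robust; 8 residual and 2.73 prior degrees of freedom) in R 4.3.3, over these 10 libraries, two-sided, with Benjamini-Hochberg adjustment over all tested genes and a threshold of 0.05. The model was tested on simulated data (11972 genes, 100 changed at each size): 3 unchanged genes were called, and 4.94% of them had an unadjusted p under 0.05. The mitochondrial share was tested by exact permutation (252 splits). Other work used Python 3.11.15, numpy 2.4.6, pandas 2.3.3, scipy 1.17.1 and matplotlib 3.10.9.

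Groups follow the group label. Named genes are up to 15 per direction past the threshold with a mean of at least 5 FPKM in the higher group, filled up to 12 with the genes of smallest p whose ranges did not overlap, up to 5 members of smallest p from each of the 39 lists, and a fixed set of vascular genes. The comparison, its members and the lists were chosen with earlier results of these data known. Of the genes this rule names, 1 is not reported here.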

Additional observations from a re-analysis of the deposited data

Results flagged for a closer look

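Of 238 groups of 5 libraries looked at, 27 held 1 library far from the other 4 (13 in AngII+BAI, 14 in AngII+ETH). Chance alone gives about 1 in 20 for independent, normally distributed values. The levels looked at were FPKM without log and came from the same 10 libraries, so that share is no test of the 27. Each value below is in FPKM unless stated. For library-wide measures, AngII+BAI 1 had 4131 shared transcripts at 0, against 1116 to 1909 in the other 4, and AngII+ETH 4 had a mitochondrial share of 12.2%, against 21.5% to 23.8%.

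In AngII+BAI 3, Ccl2 was at 72.2 (others 0.328 to 9.07), Mylpf at 248 (3.24 to 31.5), Ucp2 at 54.4 (9.02 to 18.4) and Mt2 at 897 (127 to 287). In the same library Ugdh was at 36.5 (21.2 to 25.1) and Jun at 40.5 (19.1 to 24.8), while Gucy1a1 was low at 8.5 (18.7 to 21.9) and Npr2 low at 9.07 (19 to 22.8). AngII+BAI 5 had Col1a1 at 2976 (299.7 to 403) and Col3a1 at 3691 (345 to 778). Kdr was low in AngII+BAI 1 at 6.35 (15 to 18), and Ino80 was at 0.923 in AngII+BAI 2 and at 0 in the others.

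AngII+ETH 1 had the neuron genes Npy at 167 (7.17 to 45.9) and Th at 74.9 (2.71 to 17.6), Mylpf at 128 (1.61 to 11.8), Agtr1a at 14.2 (2.92 to 5.16) and a low Nr1d1 at 20.2 (78 to 99.5). AngII+ETH 4 had Fn1 at 1085 (245 to 461), Ace at 152 (72.2 to 91.9), Lmod1 at 140 (86.5 to 94.2), Gstm1 at 213 (134 to 140) and Jun at 23.8 (15.6 to 17.3). AngII+ETH 2 had Cyb561 at 10.3 (2.33 to 4.32) and Atf3 at 13.5 (2.99 to 5.78), and AngII+ETH 3 had AA914427 at 7.69 (4.36 to 4.80).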

How the results depend on the processing

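The count of genes past the threshold was 2. It was 0 when all 30 libraries shared the estimate of spread (1683 genes at an unadjusted p under 0.05) and 0 with neuron and muscle scores as terms (1446). It was 1 with a pseudocount of 0.1 and 1 among genes with a mean of at least 5 FPKM. It was 4 without AngII+BAI 1, 3 and 5 (2 higher, 2 lower), and 5 with single transcripts as features, 3 of them assembled transcripts without an Ensembl name; these 2 settings were chosen after seeing the data. Leaving out 1 library gave 0 to 3. The mitochondrial share difference was 2.82 to 5.96 percentage points with 1 library left out.

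Over 116 named genes and 22 settings, 2470 of 2524 log2 fold changes kept direction and side of the threshold, 30 reversed, 22 lost and 2 gained a call (Peg3, 2.55 and 2.54, without AngII+BAI 3 and 5 and without 1, 3 and 5). Without AngII+BAI 3 and 5, Nos3 was at 0.14, Dbp −0.21, Col1a1 0.46, Col3a1 0.062, Acta2 −0.39, Ccl2 0.12, Ucp1 −0.48, Lmod1 −0.019 and Mylk −0.018. Without AngII+BAI 1, 3 and 5, Nos3 was at 0.14, Nr1d1 −0.34, Dbp −0.092, Col1a1 0.44, Col3a1 0.30, Acta2 −0.18, Ccl2 0.62, Ucp1 −0.46, Mylk −0.11, Atp2b4 −0.14, Prkg1 −0.023, Timp1 0.25, Tpm3 0.016 and Mylpf 0.20. Array weights gave Col1a1 0.042, and neuron and muscle terms gave Hspd1 0.64 and Prkg1 −0.022. With 1 library left out, Col1a1 ran from −0.45 to 0.37, Ucp1 from −0.11 to 0.63 and Cpa3 from −0.40 to 0.22. The cause was not tested. The 24 genes of the naming rule and Ino80 kept direction in every setting. Their ranges did not overlap between the groups, so leaving out libraries could not have turned their direction.

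No paired analysis was possible because replicate numbers were given in accession order and pair no samples. Depth limits low transcripts most, above all in AngII+BAI 1.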
